A study of Danio rerio with 16 samples.

Results

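Transcripts of 84 ribosomal protein genes were followed in the adult zebrafish heart ventricle 7 days after cryoinjury. The 84 genes were all rows of the table of 32520 gene IDs whose symbol begins with rpl, rps, rplp or rpsa in the form used for cytosolic ribosomal proteins, with at least 50 counts summed over the 16 libraries. The 11 rows of rps6k kinases and the mitochondrial ribosomal proteins, whose symbols begin with mrp, were left out. One further symbol of this form fell below the minimum with 14 counts, and the member with the fewest counts, rps19bp1, had 1663. By the prefix of their symbols, 47 of the 84 members were counted with the large subunit and 36 with the small subunit. The remaining one, rps19bp1, encodes a protein that binds RPS19 and is not itself a ribosomal protein; it was kept because its symbol fits the rule.

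The 16 libraries formed 4 groups of 4. The injured mutants were cryoinjured fish of the ankrd1a line ankrd1abns502, made by CRISPR/Cas9, and the injured wild-type fish were AB (Oregon) fish treated in the same way. The sham mutants and sham wild-type fish had the same incision, and a probe at room temperature touched the ventricle. In the injured groups the probe had been cooled in liquid nitrogen and was held on the ventricular apex for 25 seconds. ankrd1a encodes an ankyrin repeat protein of striated muscle; whether the mutants were homozygous is not given in the sources used here. Each library came from 3 pooled ventricles, so differences between single hearts were not measured. RNA was enriched for poly(A) and libraries were strand-specific. The design asks what injury does in each genotype, how mutants differ from wild type in sham and in injured hearts, and whether injury acts differently in mutants. The genetic background of the mutant line is not described here. The mutation and a difference in background therefore cannot be told apart.

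Cytosolic ribosomal proteins assemble with ribosomal RNA in the nucleolus into the large and the small subunit of the ribosome. Their mRNAs are among the most abundant of most cells, and in vertebrates they begin with a terminal oligopyrimidine (TOP) motif, through which the mTOR pathway sets how strongly they are translated. A transcript level is therefore only one of the levels at which these genes are regulated. Some ribosomal proteins also exist as paralogs, in zebrafish often as retained copies of a whole-genome duplication.

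Total counts ranged from 5623721 to 12254719 per library, and every one of the 84 members passed the filter on low counts. The 13 protein-coding genes of the mitochondrial genome took 7.91% to 22.9% of a library's counts, averaging 13.8% ± 0.498 with injury and 20.2% ± 1.36 with sham surgery in mutants, and 12.0% ± 2.87 with injury and 20.8% ± 2.36 with sham surgery in wild type (SD, 4 libraries each). The symbol ANKRD1 stands for 2 gene IDs that the symbol table does not assign to ankrd1a or its paralog. ENSDARG00000075263 averaged 23.0 ± 8.35 CPM (counts per 1000000 counts after scaling) with injury and 0.480 ± 0.306 CPM with sham surgery in mutants, and 23.8 ± 15.6 CPM with injury and 1.77 ± 1.88 CPM with sham surgery in wild type, so its level does not check the genotype labels. The other ID, ENSDARG00000076192, had at most 5 counts in a library. Markers of ventricular tissue were present in all groups. The 12 cardiomyocyte marker IDs summed to 60068 to 89968 CPM with injury and 101128 to 125247 CPM with sham surgery in mutants, and to 55898 to 74721 CPM with injury and 93166 to 101186 CPM with sham surgery in wild type. Of these only TNNI1 (ENSDARG00000000474) was at 0 in a whole group, the sham mutants.

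Summed markers of leukocytes, of fibroblasts and epicardium and of dividing cells were higher after injury, and those of endothelium were not. The 11 leukocyte IDs summed to 786 to 1245 CPM with injury and 241 to 505 CPM with sham surgery in mutants, and to 688 to 1062 CPM with injury and 152 to 249 CPM with sham surgery in wild type. The 12 fibroblast and epicardium IDs summed to 5899 to 9407 CPM with injury and 2185 to 2566 CPM with sham surgery in mutants, and to 8503 to 9296 CPM with injury and 1847 to 2823 CPM with sham surgery in wild type. The 6 markers of dividing cells summed to 173 to 235 CPM with injury and 32.8 to 53.7 CPM with sham surgery in mutants, and to 131 to 232 CPM with injury and 33.0 to 50.3 CPM with sham surgery in wild type. None of these markers was at 0 in a group. The 9 endothelium and endocardium IDs, none at 0 in a group, overlapped between injured and sham hearts, at 984 to 1079 CPM with injury and 948 to 1122 CPM with sham surgery in mutants, and at 836 to 1005 CPM with injury and 858 to 1012 CPM with sham surgery in wild type. The 14 skeletal muscle IDs, 3 of them at 0 in each group except injured wild type, summed to 4369.6 to 11963 CPM with injury and 4797 to 6859 CPM with sham surgery in mutants, and to 4819 to 7282 CPM with injury and 6922 to 9866 CPM with sham surgery in wild type. The tissue was sampled in bulk, so fewer cells of a type and less RNA per cell cannot be told apart. The part of cell composition in the results on ribosomal protein genes was not tested.

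Taken as a share of a library's counts, the family was on average larger after injury. The 84 members held 5.00%, 6.21%, 5.65% and 5.61% of all counts in the libraries of injured mutants and 6.16%, 6.05%, 5.95% and 6.34% in injured wild type, against 4.89%, 4.94%, 5.17% and 4.61% in sham mutants and 4.60%, 6.10%, 5.18% and 5.21% in sham wild type. Injured mutant replicate 1 lay among the sham mutants, and sham wild-type replicate 2 lay among the injured wild-type libraries, so the groups overlapped in both genotypes. The family's totals are given as a description and were not tested. For 78 of the 84 members the mean share of all counts was higher in injured than in sham hearts, in mutants and in wild type alike. The same count over all tested genes was not made. Relative to total counts the typical gene rose too, with a median log2 fold change of 0.34 in mutants and 0.46 in wild type. With mitochondrially encoded genes left out of the total, the share averaged 6.52% ± 0.613 in injured mutants and 6.96% ± 0.0646 in injured wild type, against 6.15% ± 0.313 in sham mutants and 6.65% ± 0.637 in sham wild type (SD, 4 libraries each). Libraries overlapped there too, at 5.75% to 7.25% in injured and 5.85% to 6.58% in sham mutants. In wild type all injured libraries, at 6.88% to 7.02%, lay within the sham range of 5.97% to 7.49%.

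After TMM scaling, which sets most genes of a library level with those of the other libraries, the same family was lower after injury. The scaling factors were 1.00 to 1.20 in injured mutants and 1.13 to 1.26 in injured wild type, against 0.815 to 0.947 in sham mutants and 0.864 to 0.902 in sham wild type. Summed TMM-scaled levels averaged 51178 ± 5285 CPM with injury and 57326 ± 4814 CPM with sham surgery in mutants, and 51005 ± 2163 CPM with injury and 60135 ± 6822 CPM with sham surgery in wild type (SD, 4 libraries each). Here injured mutant replicate 2, with 58949 CPM, stood above 3 of the 4 sham mutant libraries. The direction of the family therefore depends on the scaling: relative to the typical gene it was lower after injury, and relative to all counts it was higher. Without TMM factors, the median log2 fold change of all tested genes moved to 0.34 in mutants and 0.46 in wild type, and that of the members to 0.20 in mutants and 0.21 in wild type, again below the typical gene.

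**Figure D1:**
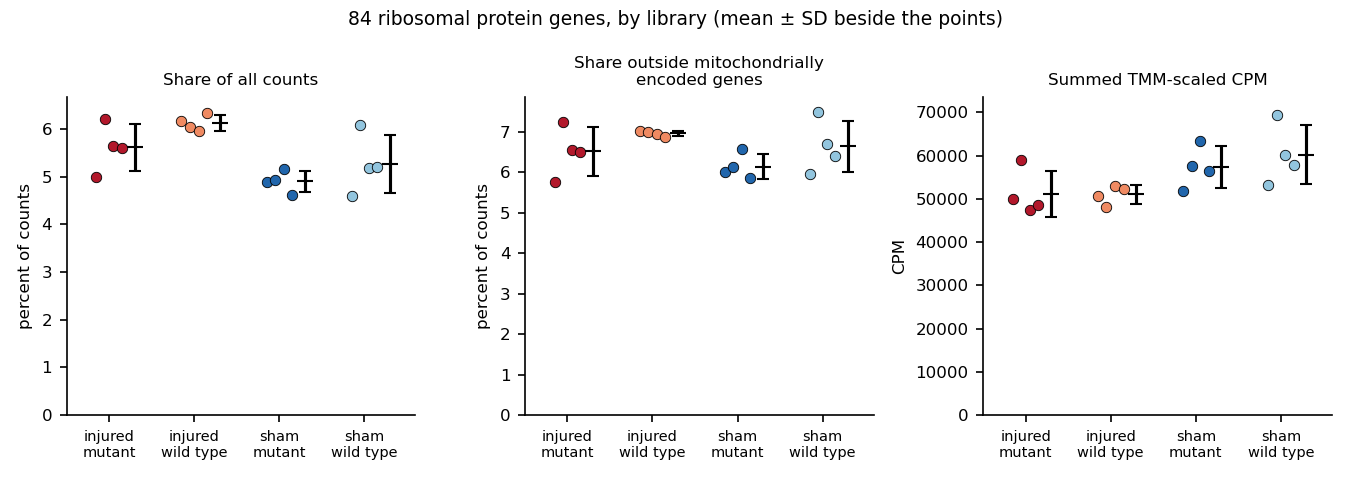
Share of counts held by the 84 ribosomal protein genes, in percent of all counts (left) and of counts outside mitochondrially encoded genes (middle), and their summed TMM-scaled CPM (right); each point is a library, and the bars give the mean ± SD of 4 libraries. The share of all counts averages 5.62% in injured mutants and 6.13% in injured wild type, against 4.90% in sham mutants and 5.27% in sham wild type, while the scaled sum runs the other way.

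Single members were tested in the fit over all genes with TMM scaling. Injury in mutants called 8 of the 84 members at an adjusted p below 0.05, of which 1 rose and 7 fell, while 28.9% of all 14986 tested genes were called, 16.5% higher and 12.4% lower. Injury in wild type called 14 members, of which 1 rose and 13 fell, while 25.3% of all tested genes were called, 13.9% higher and 11.5% lower. The members called made up 9.52% of the family in mutants and 16.7% in wild type. This difference from all tested genes was not itself tested. It was absent in wild type with DESeq2, which called 25 members, 1 higher and 24 lower, beside 27.8% of all tested genes. The 8 members called in mutants were all among the 14 called in wild type, with the same sign; these comparisons share no library, but they share the fitted spread. In the large subunit 3 of 47 members fell in mutants and 6 of 47 fell in wild type, and none rose. In the small subunit 4 of 36 fell and 1 rose in mutants, and 7 of 36 fell and 1 rose in wild type.

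The shift of the family was small and shared by nearly all members under TMM scaling. Log2 fold changes were below 0 for 75 of 84 members in mutants and for 78 of 84 in wild type, against 50.9% of all tested genes in mutants and 49.5% in wild type. The median was -0.16 in mutants, beside -0.015 over all tested genes, and -0.24 in wild type, beside 0.0072 over all tested genes. In mutants the members between the lower and upper quartile lay between -0.23 and -0.08, and in wild type between -0.32 and -0.16. With no TMM factors these signs turned for most members: 13 rose and 1 fell in mutants, and 18 rose and 1 fell in wild type, at an adjusted p below 0.05 in edgeR. Of all tested genes, 30.6% were then called higher and 3.12% lower in mutants, and 35% higher and 2.22% lower in wild type. Injured and sham values were fully apart for 7 members in mutants, 1 higher and 6 lower, where 29.2% of all tested genes were apart, 15.8% higher and 13.3% lower. In wild type they were apart for 24 members, 2 higher and 22 lower, against 26.1% of all tested genes, 14% higher and 12.1% lower.

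**Figure D2:**
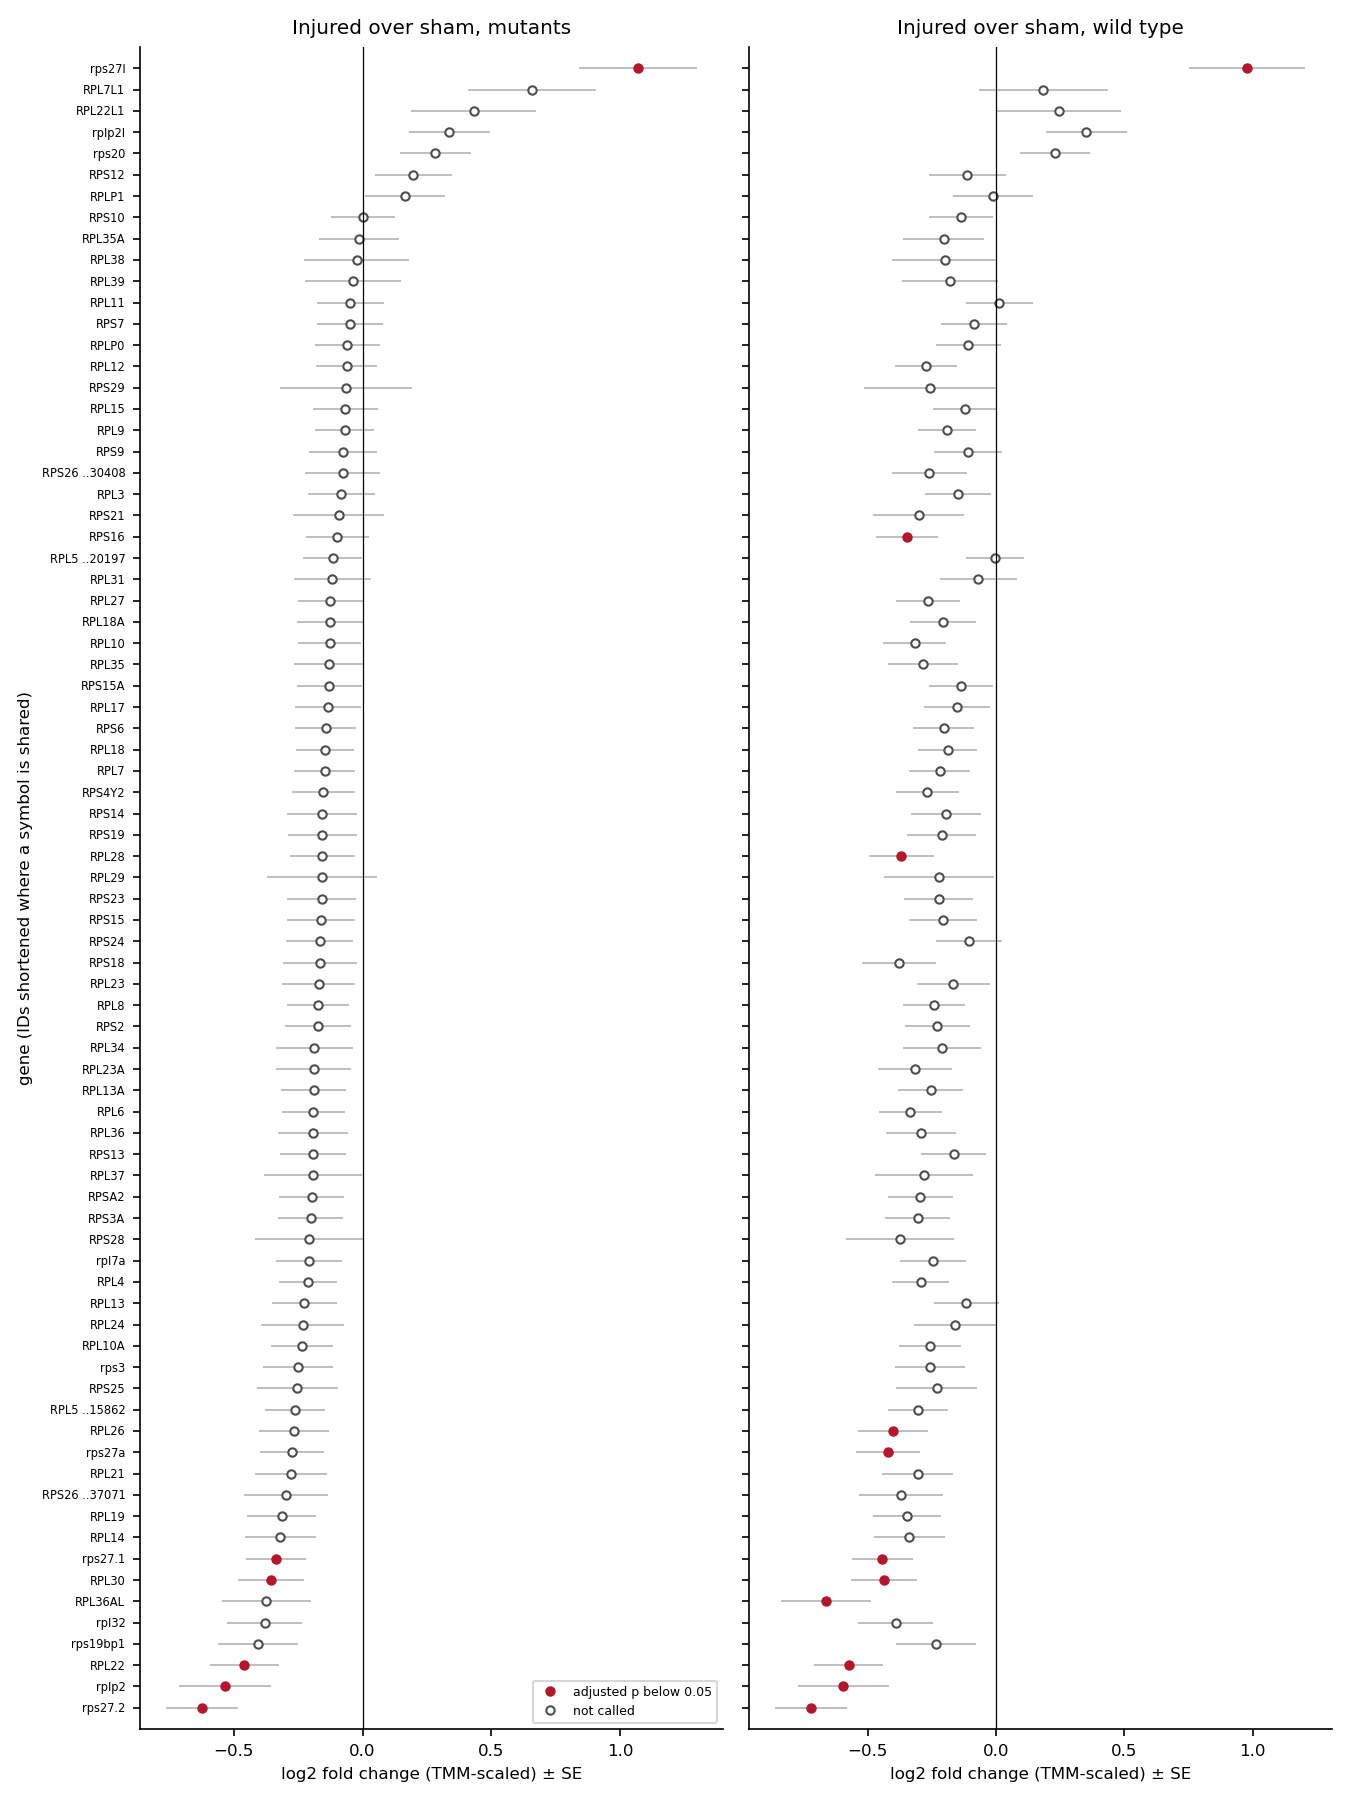
Log2 fold change of injured over sham ± SE for 78 of the 84 members, TMM-scaled, in mutants (left) and wild type (right), ordered by the value in mutants; filled points have an adjusted p below 0.05. Most members lie slightly below 0, where the medians of all 84 are -0.16 in mutants and -0.24 in wild type, and without TMM factors the medians are 0.20 in mutants and 0.21 in wild type; rps27l lies at 1.07 in mutants and 0.98 in wild type, and rps27.2 at -0.62 in mutants and -0.72 in wild type.

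Of the members called for injury, 6 in mutants and 11 in wild type are described singly. The member that rose was rps27l, a paralog of the small-subunit protein RPS27; in human cells its gene is a transcriptional target of p53. rps27l had 20.6, 25.1, 16.8 and 15.5 CPM in the injured mutant libraries and 34.2, 17.3, 20.5 and 17.8 in the injured wild-type ones, against 10.3, 8.93, 9.37 and 8.48 CPM in the sham mutant libraries and 8.38, 13.0, 13.2 and 10.9 in the sham wild-type ones. Every injured library stood above every sham library of its genotype, and injured wild-type replicate 1 was highest of all. Injury raised rps27l by 1.07 ± 0.23 SE (adjusted p = 0.00212 in edgeR) on the log2 scale in mutants and by 0.98 ± 0.23 SE (adjusted p = 0.00420 in edgeR) in wild type. Its libraries held 136 to 201 counts in injured mutants and 149 to 277 in injured wild type, against 48 to 85 in sham mutants and 49 to 82 in sham wild type, so it was also among the members with the fewest counts. It kept its call in both genotypes under every scaling, with a log2 fold change of 1.41 (edgeR adjusted p = 0.000156) in mutants and 1.43 (edgeR adjusted p = 0.000128) in wild type when no TMM factor was used.

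Both zebrafish genes of RPS27 itself, a zinc-finger protein of the small subunit, fell under TMM scaling. rps27.2 had 336, 456, 351 and 355 CPM in the injured mutant libraries and 299, 335, 358 and 299 in the injured wild-type ones, against 519, 578, 690.0 and 520.4 CPM in the sham mutant libraries and 491, 613, 542 and 482 in the sham wild-type ones. No injured library reached the lowest sham library of its genotype. rps27.2 fell by 0.62 ± 0.14 SE (adjusted p = 0.00292 in edgeR) in mutants and by 0.72 ± 0.14 SE (adjusted p = 0.00102 in edgeR) in wild type. Its copy rps27.1 had 284, 343, 294 and 329.7 CPM in the injured mutant libraries and 289, 273, 295 and 284 in the injured wild-type ones, against 347, 389.5, 412 and 432 CPM in the sham mutant libraries and 341, 421, 412 and 377 in the sham wild-type ones. Its injured libraries were also all below the sham libraries of the same genotype, with log2 fold changes of -0.34 ± 0.12 SE (adjusted p = 0.0386 in edgeR) in mutants and -0.44 ± 0.12 SE (adjusted p = 0.00988 in edgeR) in wild type. Neither kept its call without TMM factors, where the values were -0.26 in mutants and -0.27 in wild type for rps27.2. The values of rps27.1 were 0.030 in mutants and 0.012 in wild type.

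**Figure D3:**
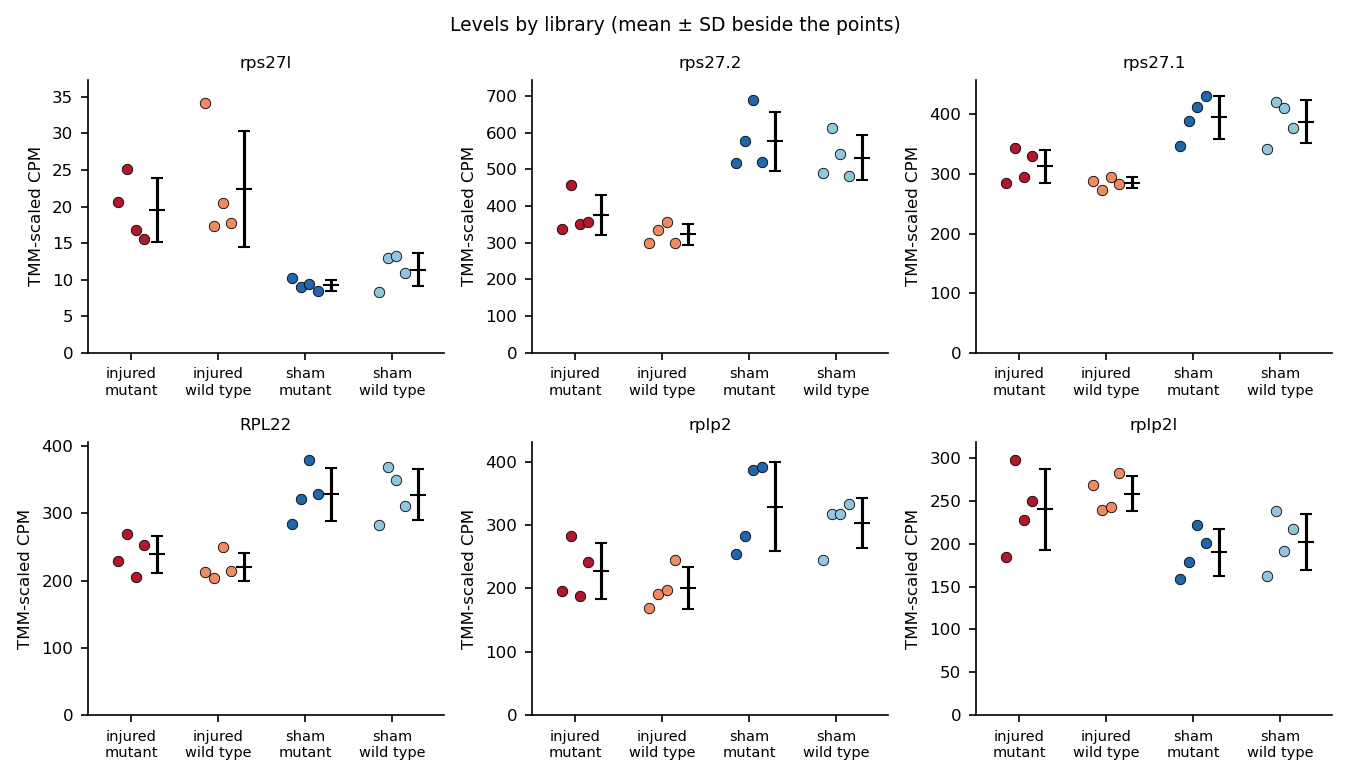
TMM-scaled CPM of 6 members by library, with the mean ± SD of the 4 libraries of each group. rps27l is higher in injured than in sham libraries, and rps27.2, rps27.1 and RPL22 are lower with no overlap within a genotype. rplp2 is lower with overlap, and rplp2l runs against rplp2 but was not called on this scale. Without TMM factors rps27.2, rps27.1, RPL22 and rplp2 are no longer called.

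In the large subunit, RPL22, an RNA-binding protein that is not essential for translation in mouse, had 228, 269, 205 and 253 CPM in the injured mutant libraries and 212, 204, 250.4 and 214 in the injured wild-type ones, against 284, 321, 379 and 328 CPM in the sham mutant libraries and 282, 368, 349 and 311 in the sham wild-type ones. All injured libraries lay below the sham libraries of their genotype. RPL22 fell by 0.46 ± 0.13 SE (adjusted p = 0.0152 in edgeR) in mutants and by 0.58 ± 0.13 SE (adjusted p = 0.00421 in edgeR) in wild type; in mutants the call ended without injured mutant replicate 3 or sham mutant replicate 3, with an adjusted p of up to 0.0540. rplp2 encodes P2, which with P1 and P0 forms the stalk of the large subunit that recruits elongation factors. rplp2 had 195, 283, 188 and 242 CPM in the injured mutant libraries and 168, 191, 198 and 246 in the injured wild-type ones, against 255, 283, 387 and 392 CPM in the sham mutant libraries and 245, 318, 318 and 333 in the sham wild-type ones. Its groups overlapped in both genotypes, yet it was called, at -0.53 ± 0.18 SE (adjusted p = 0.0305 in edgeR) in mutants and -0.60 ± 0.18 SE (adjusted p = 0.0193 in edgeR) in wild type. The call in mutants ended without injured mutant replicate 1 or 3 or sham mutant replicate 3 or 4, where the adjusted p reached 0.0982, and the call in wild type ended without injured wild-type replicate 1 or 2, where it reached 0.0609. RPL36AL carries the symbol of a human paralog of RPL36A, which does not show that the zebrafish gene is a paralog. It had 291, 313, 307 and 409 CPM in the injured mutant libraries and 244, 219.9, 235 and 254 in the injured wild-type ones. The sham mutant libraries had 336, 453, 465 and 457 CPM of it, and the sham wild-type ones 304, 472, 279 and 452. Its injured wild-type libraries were all below the sham wild-type libraries, and the injured mutants overlapped the sham mutants. RPL36AL was called in wild type only, at -0.66 ± 0.17 SE (adjusted p = 0.00957 in edgeR), with -0.37 ± 0.17 SE (adjusted p = 0.117 in edgeR) in mutants; the difference between these values was 0.29 ± 0.25 SE (adjusted p = 0.819 in edgeR) and was not called. The wild-type call of RPL36AL ended without TMM factors, at -0.21 (edgeR adjusted p = 0.364), and with the members' own total as library size, at -0.42 (edgeR adjusted p = 0.0721).

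RPL30 of the large subunit was called in both genotypes, with a smaller change. RPL30 had a log2 fold change of -0.35 ± 0.13 SE (adjusted p = 0.0447 in edgeR) in mutants and -0.44 ± 0.13 SE (adjusted p = 0.0176 in edgeR) in wild type. Other members were called in wild type alone: rps27a, which encodes ubiquitin fused to a small-subunit protein, the large-subunit genes RPL26 and RPL28, and the small-subunit gene RPS16. Their log2 fold changes were -0.35 to -0.42 in wild type and -0.10 to -0.27 in mutants. Without TMM factors neither RPL30 nor these genes were called in wild type, where RPL30 stood at 0.017, rps27a at 0.034, RPL26 at 0.050, RPL28 at 0.083 and RPS16 at 0.10. The calls of RPL26, RPL28 and RPS16 each rested on particular libraries as well, since leaving out 1 library ended them in 5 to 9 of 16 refits. In mutants the call of rps27.1 ended in 5 and that of RPL30 in 8 of 16 such refits. RPL30, rps27a, RPL26, RPL28 and RPS16 were named after their values were seen.

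Members paired as paralogs by their symbols can be compared within a library, where scaling cancels. Of 8 such pairs tested, 6 are reported here, and the log2 ratio of their counts was compared between injured and sham libraries within genotype, and between mutant and wild-type libraries within treatment, by exact two-sided permutation tests adjusted over all 16 tests. The counts are not per length, so a share of a pair's counts is not a share of its molecules, and only its change between groups is compared. The ratio differed with injury in 5 of the 6 pairs and with genotype in 1. How often this test would call the ratios of other gene pairs was not measured. These counts therefore do not show a trait particular to ribosomal paralogs. Of 192 counts in these pairs, 1 was not whole; how reads shared by near-identical copies were divided is not given in the sources used here.

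The P2 pair changed with no overlap between injured and sham libraries. Of the pair's counts, rplp2l held 48.7, 51.3, 54.7 and 50.8% in injured mutants and 61.4, 55.7, 55.2 and 53.5% in injured wild type, against 38.4, 38.7, 36.5 and 33.9% in sham mutants and 39.9, 42.9, 37.6 and 39.4% in sham wild type. The lowest injured library stood at 48.7% and the highest sham library at 42.9%. The log2 ratio of rplp2l over rplp2 was higher after injury by 0.91 (SE 0.079, exact permutation adjusted p = 0.00327), at the smallest unadjusted p these permutations allow, with 0.86 in mutants and 0.96 in wild type. The scaled sum of both genes averaged 468 ± 89.2 CPM with injury and 519 ± 96.8 CPM with sham surgery in mutants, and 459 ± 46.0 CPM with injury and 506 ± 68.5 CPM with sham surgery in wild type (SD, 4 libraries each). The ratio was also lower in mutants than in wild type by 0.24 (SE 0.079, exact permutation adjusted p = 0.0131), by 0.30 in injured and 0.19 in sham hearts. By itself, rplp2l was not called for injury in the edgeR fit over all 16 libraries with TMM scaling. Without TMM factors it was called higher, by 0.71 in mutants (edgeR adjusted p = 0.00242) and 0.81 in wild type (edgeR adjusted p = 0.000907).

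The ratio of RPL22L1 over its paralog RPL22 was also higher after injury. In mouse, RPL22 protein is known to repress the mRNA of its paralog. Of the counts of this pair, RPL22L1 held 22.1, 19.4, 28.3 and 20.9% in injured mutants and 23.9, 16.5, 15.6 and 23.5% in injured wild type, against 15.5, 11.0, 9.07 and 18.6% in sham mutants and 11.2, 16.1, 9.87 and 11.4% in sham wild type. Injured mutants stood above all sham mutants, while injured and sham wild type overlapped through sham wild-type replicate 2. The log2 ratio was higher after injury by 0.89 (SE 0.20, exact permutation adjusted p = 0.00392), with 0.94 in mutants and 0.84 in wild type. RPL22L1 by itself was not called, at 0.43 ± 0.24 SE (adjusted p = 0.193 in edgeR) in mutants and 0.25 ± 0.24 SE (adjusted p = 0.503 in edgeR) in wild type.

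RPL7L1 is a relative of the large-subunit gene RPL7, and its share of the counts of both averaged 2.89% ± 0.644 in injured mutants and 2.16% ± 0.790 in injured wild type, against 1.68% ± 0.259 in sham mutants and 1.63% ± 0.382 in sham wild type (SD, 4 libraries each). Its log2 ratio was higher after injury by 0.57 (SE 0.20, exact permutation adjusted p = 0.0312), with 0.79 in mutants and 0.35 in wild type. Injured wild-type replicate 3, at 1.18%, lay below all sham wild-type libraries, at 1.27% to 2.17%. The call was lost without injured wild-type replicate 1 or 4 or sham wild-type replicate 1, 2 or 3, with a permutation adjusted p of up to 0.0711.

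The other pairs differed by less. Of the counts of rps27.1 and rps27.2, rps27.1 averaged 45.6% ± 2.13 in injured mutants and 47.0% ± 2.25 in injured wild type, against 40.8% ± 3.32 in sham mutants and 42.2% ± 1.57 in sham wild type (SD, 4 libraries each), a log2 ratio higher after injury by 0.28 (SE 0.071, exact permutation adjusted p = 0.00653). Of the RPL5 pair, RPL5 ENSDARG00000020197 averaged 49.1% ± 1.39 in injured mutants and 49.2% ± 1.95 in injured wild type, against 46.5% ± 1.85 in sham mutants and 44.1% ± 1.41 in sham wild type (SD, 4 libraries each). That ratio was higher after injury by 0.22 (SE 0.048, exact permutation adjusted p = 0.00392). The RPS26 pair was not called, at -0.17 (SE 0.088, exact permutation adjusted p = 0.104) for RPS26 ENSDARG00000037071 over RPS26 ENSDARG00000030408; without injured wild-type replicate 4 it passed the threshold. The ratios of these 3 pairs, of RPL22L1 over RPL22 and of RPL7L1 over RPL7 did not differ detectably between genotypes, with adjusted p-values from 0.245 to 0.934 in the exact permutation tests.

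**Figure D4:**
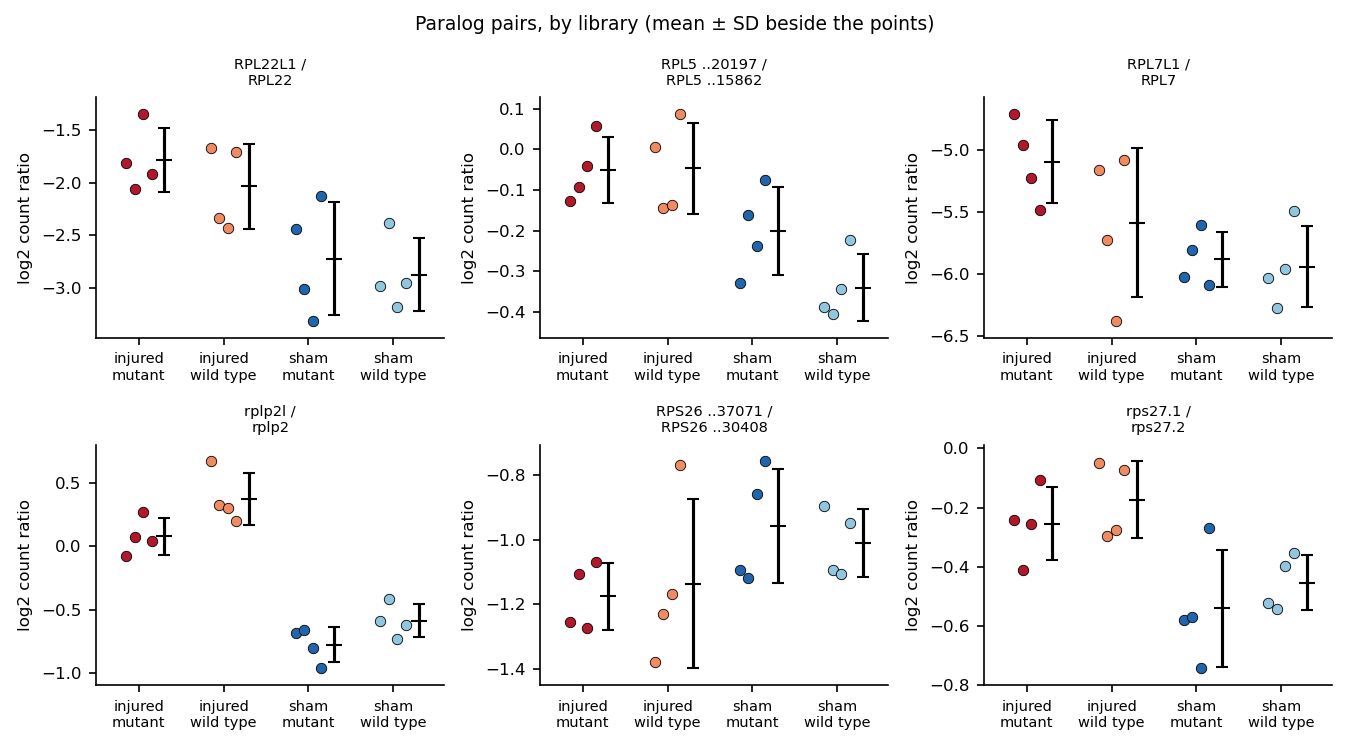
Log2 ratio of the counts of 6 paralog pairs in each library, with the mean ± SD of the 4 libraries of each group; the axes differ between panels and do not start at 0. The ratio of rplp2l over rplp2 is higher after injury by 0.91 and that of RPL22L1 over RPL22 by 0.89, and neither depends on how libraries are scaled.

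RPLP0, RPL13A and RPS18 are members often used as reference genes in quantitative PCR. RPLP0, the P0 protein of the stalk, averaged 2519 ± 343 CPM with injury and 2624 ± 249.6 CPM with sham surgery in mutants, and 2649 ± 86.2 CPM with injury and 2857 ± 304 CPM with sham surgery in wild type (SD, 4 libraries each). RPL13A averaged 577 ± 70.3 CPM with injury and 658 ± 75.1 CPM with sham surgery in mutants, and 619.8 ± 32.7 CPM with injury and 739.6 ± 80.1 CPM with sham surgery in wild type. RPS18 averaged 467 ± 46.9 CPM with injury and 524 ± 60.4 CPM with sham surgery in mutants, and 431 ± 57.1 CPM with injury and 561 ± 90.0 CPM with sham surgery in wild type. None of them was called with TMM scaling: their log2 fold changes were -0.059, -0.19 and -0.17 in mutants, and -0.11, -0.26 and -0.38 in wild type, with edgeR adjusted p-values from 0.0613 to 0.759. Without TMM factors RPLP0 rose, by 0.30 (edgeR adjusted p = 0.0400) in mutants and 0.35 (edgeR adjusted p = 0.0174) in wild type.

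RPL5, RPL11, RPS6, RPS19 and RPSA2, several of which have known roles outside the ribosome, were not called after injury with TMM scaling. In human cells RPL5 and RPL11, with 5S ribosomal RNA, bind and inhibit MDM2, the negative regulator of p53. RPL11 had a log2 fold change of -0.048 ± 0.13 SE (adjusted p = 0.813 in edgeR) in mutants and 0.013 ± 0.13 SE (adjusted p = 0.957 in edgeR) in wild type. RPL5 ENSDARG00000015862 had -0.26 ± 0.12 SE (adjusted p = 0.103 in edgeR) in mutants and -0.30 ± 0.12 SE (adjusted p = 0.0662 in edgeR) in wild type, and although every injured value lay below the sham values of its genotype it was not called. RPL5 ENSDARG00000020197 had -0.12 in mutants and -0.0056 in wild type. RPS6, whose protein is phosphorylated by S6 kinases, had -0.14 in mutants and -0.20 in wild type, and RPS19, which is mutated in Diamond-Blackfan anaemia in people, had -0.16 in mutants and -0.21 in wild type. RPSA2, the ribosomal protein SA also known as a laminin receptor, averaged 1890.0 ± 239 CPM with injury and 2167 ± 154 CPM with sham surgery in mutants, and 2021 ± 202 CPM with injury and 2482 ± 268 CPM with sham surgery in wild type (SD, 4 libraries each). Its log2 fold change was -0.20 ± 0.13 SE (adjusted p = 0.261 in edgeR) in mutants and -0.30 ± 0.13 SE (adjusted p = 0.0979 in edgeR) in wild type. Without TMM factors RPL11 was called higher in wild type, at 0.47 (edgeR adjusted p = 0.00581), with 0.31 (edgeR adjusted p = 0.0529) in mutants. RPL5 ENSDARG00000020197 was then called higher in wild type as well, at 0.45 (edgeR adjusted p = 0.00410), with 0.25 (edgeR adjusted p = 0.0935) in mutants.

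Scaled to the family's own total, so that only its internal composition counts, few members differed. Injury in mutants then called 6 members higher, which were rps27l, RPL7L1, rplp2l, rps20, RPS12 and RPLP1, and 2 lower, among them rps27.2. In wild type 3 were higher, rps27l, rplp2l and rps20, and 3 lower, among them rps27.2 and RPL22. On this scale 19.7% of all tested genes were called higher and 5.83% lower in mutants, and 18.9% higher and 4.34% lower in wild type. rps20, a small-subunit gene, held 0.765% to 0.833% of the family's counts in injured mutants and 0.764% to 0.916% in injured wild type, against 0.516% to 0.634% in sham mutants and 0.585% to 0.626% in sham wild type, with no overlap of injured and sham libraries. Its log2 fold change on this scale was 0.45 (edgeR adjusted p = 0.00643) in mutants and 0.47 (edgeR adjusted p = 0.00538) in wild type, and with TMM scaling it was 0.28 ± 0.14 SE (adjusted p = 0.133 in edgeR) in mutants and 0.23 ± 0.14 SE (adjusted p = 0.241 in edgeR) in wild type. rps20, RPS12 and RPLP1 were named after their values were seen.

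In the edgeR fit over all 16 libraries with TMM scaling, the genotype made no called difference to any single member. In injured hearts, mutant over wild type, 0 of 84 members were called in edgeR while 2.56% of all tested genes were. There 2 members, RPL36AL and RPLP1, had an unadjusted p below 0.05, and DESeq2 also called 0, beside 4.48% of all tested genes. In sham hearts 0 of 84 were called in edgeR while 5.81% of all tested genes were. In that comparison 4 members had an unadjusted p below 0.05, and DESeq2 called 1, RPLP1, beside 8.21% of all tested genes. Among the 4 were RPLP1, RPL10 and RPS3A. The median log2 fold change of the members was 0.04 in injured and -0.04 in sham hearts, beside 0.00 over all tested genes in both. The interaction of injury and genotype called 0 members in edgeR, at 0% of all tested genes, and none had an unadjusted p below 0.05. DESeq2 also called 0 there, at 0.28% of all tested genes. The sham wild-type libraries enter both the injury comparison in wild type and the genotype comparison in sham hearts, so these are not independent.

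The member closest to a genotype call was RPLP1, the P1 protein of the ribosomal stalk. RPLP1 had 684, 1057, 649 and 644 CPM in the injured mutant libraries and 1012, 907, 938 and 969 in the injured wild-type ones, and 598, 654, 749 and 701 CPM in the sham mutant libraries and 823, 1079, 1026 and 932 in the sham wild-type ones. In sham hearts all mutants were below all wild-type libraries, and in injured hearts mutant replicate 2 was above the wild-type libraries while the other 3 mutants were below them. The log2 fold change of mutant over wild type was -0.33 ± 0.16 SE (adjusted p = 0.295 in edgeR) in injured and -0.51 ± 0.16 SE (adjusted p = 0.0594 in edgeR) in sham hearts. As a share of the family's counts, RPLP1 held 1.13% to 1.24% in sham mutants and 1.55% to 1.71% in sham wild type. Scaled to the family's total the difference in sham hearts was called, at -0.45 (edgeR adjusted p = 0.0281). Without TMM factors it was called as well, at -0.55 (edgeR adjusted p = 0.0270). The erythrocyte markers, 7 IDs with SLC4A1 (ENSDARG00000024560) at 0 in every group, had lower medians in mutants, with overlap after injury. They summed to 577 to 1713 CPM in mutants and 1361 to 7542 CPM in wild type after injury, and to 557 to 1278 CPM in mutants and 1364 to 2734 CPM in wild type after sham surgery. Their part in the RPLP1 values was not tested.

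Other genes of protein synthesis were set beside the family, and their counts also depended on the scaling. Under TMM scaling, 16.5% of all tested genes were called higher and 12.4% lower in mutants, and 13.9% higher and 11.5% lower in wild type. Without TMM factors, 30.6% were called higher and 3.12% lower in mutants, and 35% higher and 2.22% lower in wild type. The counts of each list stand beside these shares. Mitochondrial ribosomal proteins, which build the ribosomes inside mitochondria, had 75 tested genes, of which 29 fell and 0 rose in mutants and 30 fell and 0 rose in wild type under TMM scaling, but without TMM factors 3 fell in mutants and 2 in wild type. Their median log2 fold change was -0.41 in mutants and -0.48 in wild type. MRPS35, of the small mitochondrial subunit, averaged 43.7 ± 6.19 CPM with injury and 71.3 ± 2.22 CPM with sham surgery in mutants, and 34.8 ± 5.13 CPM with injury and 68.1 ± 6.43 CPM with sham surgery in wild type (SD, 4 libraries each). Between genotypes, 1 of the 75 genes was called in injured and 2 in sham hearts (1.33% and 2.67%), beside 2.56% and 5.81% of all tested genes. MRPS14, also of the small mitochondrial subunit, was higher in mutants than in wild type, by 0.85 in injured (edgeR adjusted p = 0.0203) and by 0.72 in sham hearts (edgeR adjusted p = 0.0277).

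Of 19 elongation factors and other TOP mRNAs, 8 fell and 0 rose in mutants and 9 fell and 0 rose in wild type, but without TMM factors 1 fell and 3 rose in mutants and 3 fell and 3 rose in wild type. EEF2, which moves the ribosome along the mRNA, averaged 996 ± 127 CPM with injury and 1617 ± 216 CPM with sham surgery in mutants, and 810 ± 188 CPM with injury and 1610.0 ± 201 CPM with sham surgery in wild type (SD, 4 libraries each). Its log2 fold change was -0.70 ± 0.16 SE in mutants (adjusted p = 0.00419 in edgeR) and -0.99 ± 0.17 SE in wild type (adjusted p = 0.000321 in edgeR). EEF2K, the kinase that inhibits EEF2, is counted in this list although it is not itself an elongation factor. It fell as well, by 1.19 in mutants (edgeR adjusted p = 9.12e-05) and by 1.02 in wild type (edgeR adjusted p = 0.000351). The ribosome-associated proteins BTF3 and naca, which meet nascent chains, fell by 0.65 and 0.58 in mutants and by 0.83 and 0.64 in wild type (edgeR adjusted p from 0.000193 to 0.00322). These values are under TMM scaling. Of EEF2, EEF2K, BTF3 and naca, at most 1 was still called lower in mutants without TMM factors, and at most 3 in wild type.

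The list of initiation factors took every symbol beginning with eif, so it also held repressors of translation and other relatives. Among its 64 tested genes, 15 fell and 6 rose in mutants and 19 fell and 2 rose in wild type. Without TMM factors 5 fell and 17 rose in mutants and 2 fell and 12 rose in wild type. EIF4EBP3 ENSDARG00000041607, a translational repressor that mTOR inactivates, fell by 1.40 in mutants (edgeR adjusted p = 0.000860) and by 1.56 in wild type (edgeR adjusted p = 0.000403). Its relative eif4ebp1 fell by 0.99 in mutants (edgeR adjusted p = 0.000825) and by 0.86 in wild type (edgeR adjusted p = 0.00264). Another ID of the first gene's symbol, eif4ebp3 ENSDARG00000054916, fell by 1.18 in mutants (edgeR adjusted p = 0.0163) and was not called in wild type. EIF5A2, which helps elongation, rose by 1.19 in mutants (edgeR adjusted p = 0.000556) and by 0.88 in wild type (edgeR adjusted p = 0.00592). eif4a1a rose in mutants by 1.25 (edgeR adjusted p = 0.00779), with means of 213 ± 57.7 CPM after injury and 89.7 ± 22.8 CPM after sham surgery. In wild type eif4a1a averaged 127 ± 64.9 CPM with injury and 169 ± 34.3 CPM with sham surgery (SD, 4 libraries each). The interaction of injury and genotype called 0 of the 64 genes, so this difference between genotypes was not called. Of 21 mTOR pathway genes, 6 fell and 2 rose in mutants and 4 fell and 0 rose in wild type, and without TMM factors 3 fell and 4 rose in mutants and 2 fell and 5 rose in wild type. The eif4ebp genes are on this list too, so their falls are counted in both lists. TSC1 ENSDARG00000026048, one of 2 IDs of a negative regulator of mTOR, fell by 1.24 in mutants (edgeR adjusted p = 0.000198) and by 1.16 in wild type (edgeR adjusted p = 0.000361). TSC1 ENSDARG00000057918 fell by 0.70 in mutants (edgeR adjusted p = 0.0214) and stood at -0.23 in wild type (edgeR adjusted p = 0.472). DDIT4, another inhibitor of mTOR, rose by 1.87 in mutants (edgeR adjusted p = 0.00746) and stood at 1.02 in wild type (edgeR adjusted p = 0.132).

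Of 58 ribosome biogenesis genes, 6 rose and 8 fell in mutants and 1 rose and 7 fell in wild type, and without TMM factors 24 rose and 2 fell in mutants and 26 rose and 0 fell in wild type. Under TMM scaling 24.1% of the list was called in mutants and 13.8% in wild type, beside 28.9% and 25.3% of all tested genes. The list's median log2 fold change was 0.19 in mutants and 0.10 in wild type under TMM scaling, on the other side of 0 from the median of the ribosomal protein genes. DKC1 and NOP58, core proteins of nucleolar ribonucleoproteins that modify ribosomal RNA, rose by 1.56 and 1.17 in mutants (edgeR adjusted p = 0.00232 and 0.0178). In wild type DKC1 stood at 0.50 (edgeR adjusted p = 0.288) and NOP58 at 0.34 (edgeR adjusted p = 0.510), and neither was called. Injured means were 24.0 CPM in mutants and 22.2 CPM in wild type for DKC1, and 38.7 and 30.6 CPM for NOP58. Sham means were 8.11 CPM in mutants and 15.7 CPM in wild type for DKC1, and 17.2 and 24.1 CPM for NOP58. The interaction called 0 of the 58 genes, so a difference in the injury response between genotypes was not called. SDAD1, needed for export of the large subunit in yeast, fell by 0.93 in mutants (edgeR adjusted p = 0.00127) and by 0.63 in wild type (edgeR adjusted p = 0.0186). RNA polymerase I, which transcribes the large ribosomal RNA precursor, had 11 tested genes, of which 0 were called in mutants in edgeR or DESeq2, and POLR1A fell in wild type by 0.47 (edgeR adjusted p = 0.0295); without TMM factors 1 rose in mutants and 3 rose in wild type.

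Of the 13 genes of the p53 list, which includes rps27l, 0 fell in either genotype in edgeR, under TMM scaling or without it. DESeq2 called 1 of them lower in mutants. Of all tested genes, edgeR called 12.4% lower in mutants and 11.5% in wild type under TMM scaling. Without TMM factors the shares were 3.12% and 2.22%, and a list this short could hold 0 at such shares. With TMM scaling 6 rose in mutants and 6 rose in wild type, and without TMM factors 8 rose in each. PHLDA3, a p53 target that restrains Akt, averaged 29.4 ± 11.8 CPM with injury and 8.98 ± 3.74 CPM with sham surgery in mutants, and 24.7 ± 10.9 CPM with injury and 5.69 ± 1.58 CPM with sham surgery in wild type (SD, 4 libraries each). The cell cycle inhibitor cdkn1a rose by 1.37 in mutants (edgeR adjusted p = 0.00574) and by 1.51 in wild type (edgeR adjusted p = 0.00404). The called genes were not all the same: bbc3, a pro-apoptotic gene at 0.618 to 3.02 CPM in the group means, was called in wild type, at 2.27, and stood at -0.39 in mutants. baxb was called in mutants, at 0.94, and stood at -0.014 in wild type. Both genes already differed between genotypes in sham hearts. There, mutant over wild type, bbc3 was called at 2.14 (edgeR adjusted p = 0.0163) and baxb at -0.77 (edgeR adjusted p = 0.0441). Injured means were 2.06 CPM in mutants and 3.02 CPM in wild type for bbc3, and 6.90 and 6.06 CPM for baxb. mdm2 rose in wild type by 0.71 (edgeR adjusted p = 0.00462) and stood at 0.34 in mutants (edgeR adjusted p = 0.134); that difference was not called in the interaction, where 0 of the 13 genes were.

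**Figure D5:**
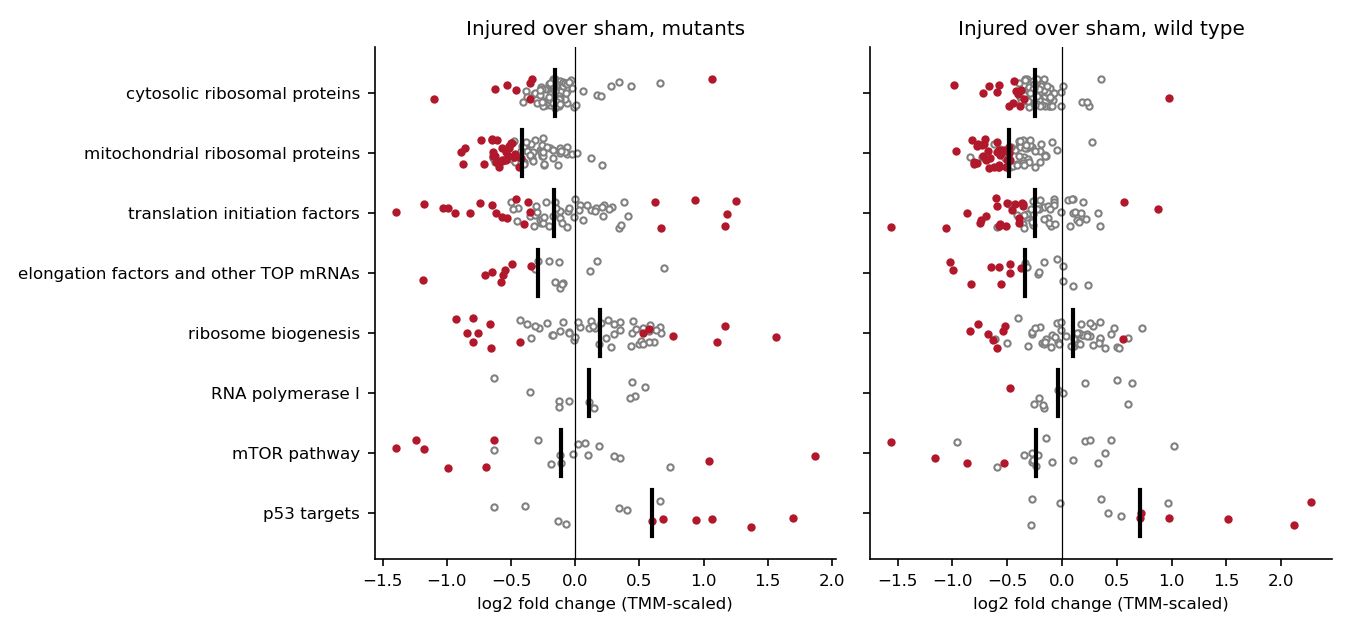
Log2 fold change of injured over sham, TMM-scaled, for the 84 cytosolic ribosomal protein genes and 7 related lists, in mutants (left) and wild type (right); filled points have an adjusted p below 0.05 and black bars are medians. Mitochondrial ribosomal proteins have the lowest medians, -0.41 in mutants and -0.48 in wild type, and p53 targets the highest, 0.60 in mutants and 0.71 in wild type; without TMM factors the medians of all lists but the mitochondrial ribosomal proteins lie above 0.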

How the data were processed

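RNA from 16 pools of 3 ventricles was sequenced, and titles gave each library its group and number. The authors deposited expected counts, that is estimates of the reads of each gene, in a single table: 3.00% to 5.02% of a library's values were not whole, and 8 of the 84 members had any such value. The submitters' processing notes name fastp 0.23.4, STAR 2.7.0 and 2.7.10 and RSEM 1.3.3, with no roles; genome build, annotation and use of strand in counting are not given in the sources used here, so genes overlapping on the other strand and near-identical copies remain uncertain. Symbols came from a table that pairs gene IDs with symbols (29201 IDs had one), which gives many zebrafish genes in human capitals.

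The deposited estimated counts were rounded, and edgeR 4.0.16 made a quasi-likelihood test (R 4.3.3, limma 3.58.1): filterByExpr on the groups left 14986 genes, libraries were scaled by TMM, 1 fit of 4 group means over 16 libraries gave 5 contrasts, and Benjamini-Hochberg adjustment ran over all genes tested, with calls at an adjusted p below 0.05. CPM are counts per 1000000 counts after TMM scaling. Paralog ratios used counts plus 0.5 and 4900 arrangements, whose smallest p is 0.000408 before adjustment. The procedure was tested on simulated counts. No library was a copy of another in its group (chi-square per degree of freedom 7.49 to 35.9); each is a separate pool, and p-values measure the spread between pools. Totals of 5623721 to 12254719 counts set the precision. No molecular identifiers are described, so reads are not independent molecules.

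Named members were the paralog pairs, the genes with stated roles and, per contrast, up to 5 called members with the largest rise and 5 with the largest fall, at 10 CPM or more in a compared group; of each other list, up to 4 called genes. Members, lists and rules were chosen with earlier results of these data known. Alternatives were DESeq2 1.42.0, other scalings and filters, fits of only the groups compared, the replicate number as a block, and leaving out each library; raw totals and the members' own total as library size were added after seeing the data. Of the 84 members, 6 entered every count and fit but are not reported here singly. Sequences of members were not analysed here.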

Additional observations from a re-analysis of the deposited data

Results flagged for a closer look

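Dixon's rule marks a library whose gap to its nearest neighbour exceeds 0.829 of the range of its group of 4. It marked 12 of 148 groups of values of the named members and pairs, or 8.11%, where chance marks about 1 in 20. No member described here moved in opposite directions with injury in all libraries of the 2 genotypes.

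Injured mutant replicate 2 was marked as the highest of its group in 4 members. RPL28 stood at 513 CPM there, against 416 to 431 CPM in the other injured mutants. RPL5 ENSDARG00000020197 stood at 654 CPM, against 585 to 597 CPM. RPLP1 stood at 1057 CPM, against 644 to 684 CPM. rps27.2 stood at 456 CPM, against 336 to 355 CPM. This library also had the largest share of counts on the family among the injured mutants, 6.21%. In injured mutant replicate 3, RPL22L1 stood at 81.0 CPM, against 64.6 to 66.9 CPM in the other injured mutants. In injured wild-type replicate 3, RPLP0 stood at 2777 CPM, against 2593 to 2625 CPM in the others.

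Sham mutant replicate 1 was marked as the lowest of its group in RPL5 ENSDARG00000020197 and RPL36AL. RPL5 ENSDARG00000020197 had 590.2 CPM there, against 680.0 to 684 CPM in the other sham mutants, and RPL36AL had 336 CPM, against 453 to 465 CPM. In sham mutant replicate 3, RPSA2 stood at 2397 CPM, against 2074 to 2103 CPM. Among sham wild-type libraries, RPL22L1 stood at 70.6 CPM in replicate 2, against 35.6 to 40.1 CPM, RPL7L1 stood at 21.3 CPM in replicate 4, against 13.5 to 14.6 CPM, and rplp2 stood at 245 CPM in replicate 1, against 318 to 333 CPM.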

How the results depend on the processing

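The scaling decided the direction of the family. With raw totals, the median log2 fold change of the members was 0.20 for injury in mutants and 0.21 in wild type, and 14 members were called in mutants (13 higher, 1 lower). Of all tested genes, 30.6% were then called higher and 3.12% lower in mutants. Their medians were 0.34 in mutants and 0.46 in wild type, above those of the members. Some values of the named members changed sign there and were called with TMM scaling, with raw totals or with both. They were, in mutants, 0.030 for rps27.1, 0.0089 for RPL30 and 0.30 for RPLP0, and in wild type 0.083 for RPL28, 0.45 for RPL5 ENSDARG00000020197, 0.44 for RPLP1, 0.012 for rps27.1, 0.034 for rps27a, 0.017 for RPL30, 0.10 for RPS16, 0.35 for RPLP0 and 0.050 for RPL26. Over all 5 contrasts, 51 further values of named members changed sign with raw totals without a call on either scale. With the members' own total as library size, 6 members were called for injury in wild type (3 higher, 3 lower) and 38 genes of the related lists (17 higher, 21 lower). Of all tested genes, 18.9% were then called higher and 4.34% lower. On that scale the genotype in sham hearts had 1 member called, while 4.96% of all tested genes were. It also had 1 with raw totals (5.41% of all tested genes), DESeq2 (8.21%) and only the groups compared (6.52%). DESeq2 called 25 members for injury in wild type (1 higher, 24 lower). It called 27.8% of all 14986 tested genes, 2203 higher and 1959 lower. Unlike in edgeR, members were thus not called less often than all tested genes in that comparison. For injury in mutants, 5 members were called with no filter on low counts and 5 with only the groups compared. Of all tested genes, 16.5% and 28.2% were called in those fits. With mitochondrially encoded genes left out, the family's share was 6.52% in injured mutants, 6.96% in injured wild type, 6.15% in sham mutants and 6.65% in sham wild type.

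The replicate numbers did not pair the libraries: deviations of same-numbered libraries correlated with a median r of 0.02 (-0.23 to 0.21, 5 of 24 above 0.1), and a library correlated best with its own number in 14 of 48 cases. With the replicate number as a block, 7 members were called for injury in mutants (1 higher, 6 lower), 12 in wild type (1 higher, 11 lower) and 0 for genotype or interaction. Of all tested genes, 27% were then called for injury in mutants and 23.7% in wild type. The shares were 2.1% for genotype in injured hearts, 4.97% in sham hearts and 0% for the interaction.

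Leaving out 1 library gave 3 to 10 members called for injury in mutants, fewest without injured mutant replicate 3 and most without replicate 2 of that group, and 8 to 17 in wild type, fewest without injured or sham wild-type replicate 2. It gave 0 to 1 for genotype in injured and in sham hearts and 0 for the interaction. Of all tested genes, these fits called 21.9% to 29.5% for injury in mutants and 19.8% to 25.3% in wild type. They called 1.36% to 3.48% for genotype in injured hearts, 3.65% to 6.23% in sham hearts and at most 0.0394% for the interaction. Medians of the members ranged from -0.25 to -0.11 for injury in mutants, -0.31 to -0.16 in wild type, -0.05 to 0.07 for genotype in injured hearts, -0.10 to 0.04 in sham hearts and -0.01 to 0.13 for the interaction. Calls in related lists ranged from 63 to 89 in mutants and 52 to 80 in wild type. Ratios called among the 8 paralog pairs tested ranged from 6 to 7 for injury and 1 to 2 for genotype. A change of sign between values that were both uncalled was not counted as a change.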
